A study of Saccharomyces cerevisiae with 10 samples.

Results

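Yeast cells lacking *MED15* were compared with cells carrying the WY23 allele of *MED15* while both fermented grape juice. The members are 4 of the 10 RNA libraries of the series, 2 of the med15 deletion and 2 of WY23, taken by their labelled genotype. All strains have the S288C background of *Saccharomyces cerevisiae* and differ, per the labels, in *MED15*: the other 6 libraries carry the LAB allele (labelled wild type), WY7 or WY15, 2 of each. Every culture was a separate fermentation of 5 mL of supplemented white grape juice, and cells were pelleted once 35% of the weight loss was reached. That point came at about 37 h in WY23 and the other *MED15* strains and at 48 h in the deletion, so genotype and time of harvest cannot be told apart in this comparison. The allele strains are integrants, per the design text, and how many clones stand behind a strain is not given in the sources used here. The replication is 2 biological replicates per strain.

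Mediator is the large protein complex that passes signals from DNA-bound activators to RNA polymerase II. Med15, also called Gal11, sits in its tail module and is contacted by activators of amino acid synthesis, stress, drug efflux, fatty acid oxidation and galactose genes. Yeast ferments sugar to ethanol even in air, represses respiration while glucose is plentiful, and in grape juice must live on a limited supply of ammonium and amino acids. The comparison asks which messages differ at the same progress of fermentation when Med15 is absent. Levels below are normalized counts, namely the reads of a gene divided by 1 size factor per library. A change is the difference of the group means of log2(normalized count + 1), deletion minus WY23. A gene was called when its adjusted p was under 0.05 in a limma fit of 6065 genes over all 10 libraries, with Benjamini-Hochberg adjustment, two-sided, and every adjusted p below comes from that fit unless another tool is named. "Rose", "fell" and "changed" are used only for called genes.

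*MED15* itself (chromosome XV, 234940 to 238185, plus strand of build R64) had 12.1 and 11.9 normalized counts in the deletion and 10571 and 10958 in WY23. These rest on 15 reads in each deletion library and on 9566 and 10081 reads in WY23, and the groups stand far apart (log2 change -9.69, SE 0.08, adjusted p = 1.3e-10). Another gene separates the strains completely: *URA3* (chromosome V, 116167 to 116970), a pyrimidine synthesis gene often used as a selection marker, had 3971 and 4037 reads in the deletion and 0 reads in both WY23 libraries and in the 6 libraries of the remaining alleles. Against a floor of 3 reads per library in WY23 it was at least 969-fold higher, a bound that covers counting error only. The labels do not mention *URA3*, so the deletion carries this difference as well. *LEU2* and *LYS2*, further common markers, were at 0 reads in all 10 libraries. The neighbours of *MED15* on its chromosome were measured in both groups. *SPE2*, a spermidine synthesis gene next to its start, had 2325 and 1738 normalized counts in the deletion and 1866 and 2096 in WY23. *GSH2*, a glutathione synthesis gene beyond its end, had 2657 and 2614 in the deletion and 2083 and 2241 in WY23. Neither was called (adjusted p = 0.94 and 0.16). Further out, *AIM39* rose (log2 change 0.66) and *DDR2* (-1.15) and *LDS2* (-1.82) fell, while *RRT8* was not called (-0.17).

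The 4 libraries hold 25.8 and 26.1 M gene-assigned reads for the deletion and 25.3 and 26.9 M for WY23, within the 22.7 to 29.3 M of the series. The WY23 pair was close, with a median absolute log2 difference between its libraries of 0.08 and 48 genes over 2-fold apart, and the deletion pair had 0.13 and 85. The chi-square of replicate counts per degree of freedom was 21.7 in WY23 and 49.4 in the deletion, where counting error alone gives about 1. Mating type markers were read in all 4 libraries. *MF(ALPHA)1*, the main alpha factor gene of alpha cells, had 3255 and 3645 normalized counts in the deletion and 51044 and 56559.6 in WY23, while *MFA1*, an a-factor gene of a cells, had 161 and 226 in the deletion and 137 and 163 in WY23. A property of the deletion libraries touches every result. Their normalized counts sum to 20.9 and 20.8 M, against 27.9 and 29.2 M in WY23. The 100 genes with the highest mean over all 10 libraries took 12.8 and 12.7% of the deletion counts, against 26.5 and 28.2% in WY23. Most of the libraries behind that ranking carry a *MED15* allele, which can by itself lower the share in the deletion, and the size of that part was not tested.

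Of 6065 genes tested 2505 were called, 41.3% of them, with 1324 higher (21.8%) and 1181 lower (19.5%) in the deletion. At least a 2-fold change was seen in 491 of the higher and 335 of the lower genes, and at least 4-fold in 158 and 91, while the median change of all genes was -0.00. Both deletion libraries lay above both WY23 libraries for 39.6% of the genes tested and below them for 40%. The direction of change went with abundance, as the plot of change against level shows. Ranked by the mean log2 level of both groups, 79 of the first 100 genes fell and 2 rose, with a median change of -1.43, whereas 37.7% of the 2065 genes below rank 4000 rose and 10.7% fell. That balance depends on how libraries are scaled. When all libraries are given equal sums, the median of all genes moves to 0.45, 3429 genes are called higher and 387 lower, and the first 100 genes have a median of -0.97. Under quantile normalization, which gives every library the same distribution, 1215 genes are higher and 1217 lower and that median is -0.17. Directions below are on the deposited scale. Apart from Mediator modules and ribosomal proteins (2.19%), lists given below without a called share have one of 61.5% (cell wall) to 100% (flocculins). Where the median of a described list changes sign under one of these scalings, its median or counts there are given beside it. Other changes of counts are given for some lists only. Without WY23 replicate 1 the counts were 822 higher and 660 lower, and without WY23 replicate 2 they were 803 and 624.

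**Figure D1:**
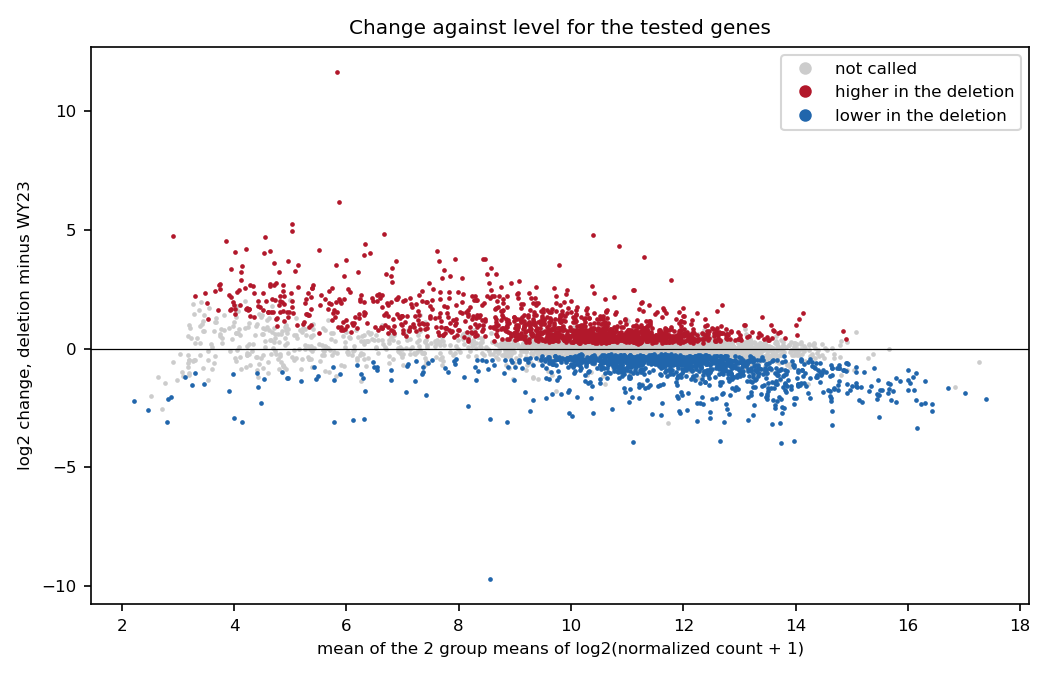
Each point is 1 of 6065 genes, placed by the mean of the 2 group means of log2(normalized count + 1) and by the log2 change, deletion minus WY23; red genes were called higher and blue genes lower. Blue points lead at the right, among abundant messages, where 79 of the first 100 genes fell, and red points lead at lower levels.

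The largest rises include genes of spore formation, amino acid uptake and fatty acid oxidation. *CDA2*, whose enzyme turns chitin into the chitosan of spore walls, had 625 and 472 normalized counts in the deletion and 17.7 and 18.5 in WY23, and the values of the groups lay far apart (log2 change 4.83, SE 0.26, adjusted p = 2.4e-05). *GNP1*, the high-affinity glutamine permease gene, had 9538 and 7191 normalized counts in the deletion and 391 and 430.4 in WY23 (log2 change 4.33, SE 0.38, adjusted p = 0.00014), and *MUP1*, the high-affinity methionine permease gene, had 12174 and 7794 normalized counts in the deletion and 686 and 629 in WY23 (log2 change 3.89, SE 0.42, adjusted p = 0.00032). *POT1*, the peroxisomal thiolase gene of fatty acid oxidation, had 1380.5 and 1182 normalized counts in the deletion and 90.6 and 94.6 in WY23 (log2 change 3.77, SE 0.17, adjusted p = 1.3e-05). The other genes in this leading set are *DPA10* (4.81), the putative hexose transporter gene *HXT14* (3.96), *CSS1* (3.79), the spore wall gene *OSW1* (3.79), the transporter gene *AMF1* (3.71) and the meiotic helicase gene *HFM1* (3.70), with adjusted p-values of 6.0e-06 to 0.00022. *ENA1*, a sodium pump gene, stood at 536 and 474 normalized counts in the deletion and 7.74 and 4.35 in WY23 (6.21), but near-identical copies make its counts uncertain.

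Among the genes that fell most are those of sugar uptake and phosphorylation. *HXT3*, a low-affinity hexose transporter gene active in fermentation, had 23733 and 22188 normalized counts in the deletion and 214612 and 255035 in WY23 (log2 change -3.35, SE 0.21, adjusted p = 4.4e-05), and *HXT1*, the low-affinity transporter gene induced by high glucose, had 11417 and 6336 normalized counts in the deletion and 75706 and 79958 in WY23 (log2 change -3.19, SE 0.26, adjusted p = 9.8e-05). *HXK1*, a hexokinase gene, had 1918 and 1493 normalized counts in the deletion and 12598 and 15627 in WY23 (log2 change -3.05, SE 0.41, adjusted p = 0.00079). The alpha factor gene *MF(ALPHA)1* fell by 3.96 on the log2 scale (adjusted p = 6.0e-06), as did *ICY1* (-3.87), the cysteine transporter gene *YCT1* (-3.15) and *DAL7*, a malate synthase gene of allantoin breakdown (-2.98). The sizes of 3 more falls depend on the deletion library. *HXT4*, a hexose transporter gene, had 3571 and 787 normalized counts in the deletion and 24887 and 24499 in WY23 and a change of -3.88 (adjusted p = 0.002), which is -4.97 without deletion replicate 1 and -2.79 without replicate 2. *TMA10*, a stress-induced gene, changed by -3.19, or -3.88 and -2.49 without these, and the drug transporter gene *AZR1* by -2.98, or -3.75 and -2.21. *AQY1*, a water channel gene, had 271 and 65.3 normalized counts in the deletion and 1242 and 894 in WY23 (-2.97), and its call is lost without WY23 replicate 1 (-2.74) or deletion replicate 2 (-1.95), while it is -3.99 without deletion replicate 1.

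**Figure D2:**
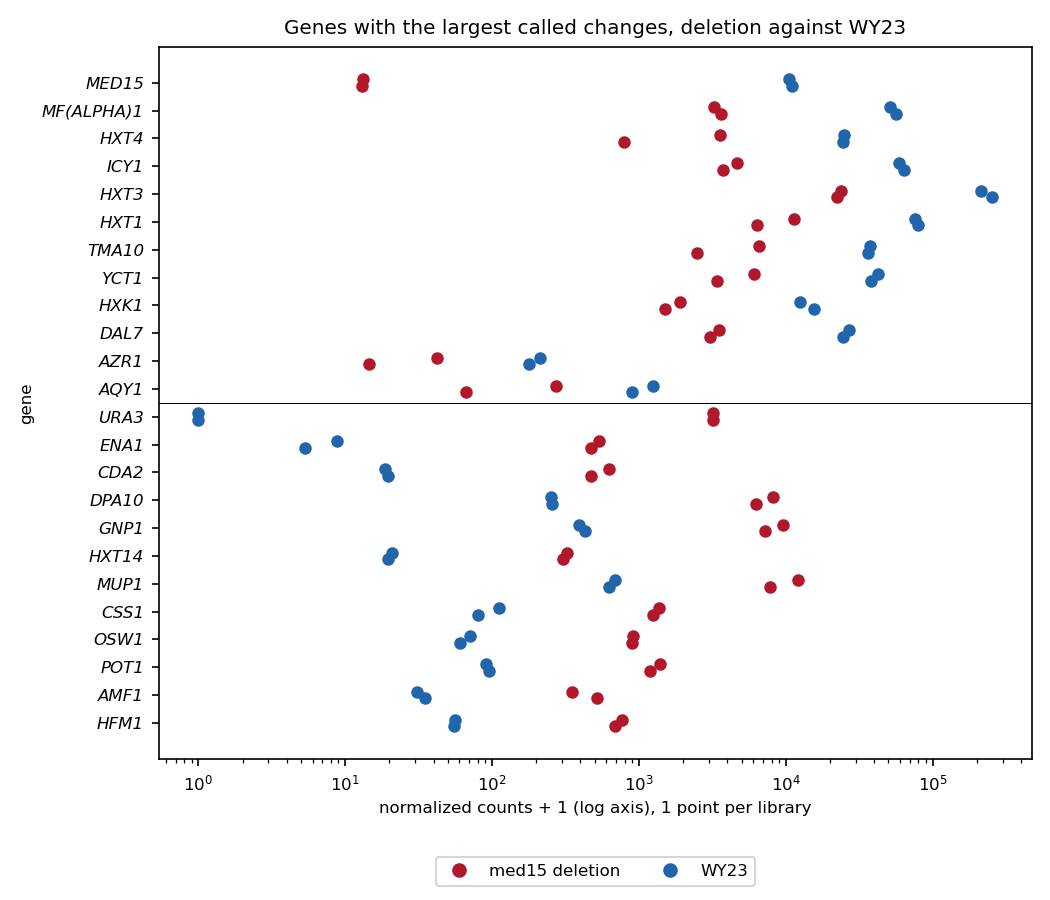
Normalized counts plus 1 on a log axis for the 12 genes with the largest called falls (top) and the 12 with the largest called rises (bottom), 1 point per library, red for the deletion and blue for WY23. Only genes without overlap of the groups were eligible, so the gap between red and blue points follows from the choice. The deletion libraries lie apart from each other for *HXT4*, *AZR1* and *AQY1*.

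Apart from *MED15*, 10 of 24 Mediator subunit genes were called, 5 higher and 5 lower, which is 41.7% beside 41.3% of all genes tested. In the tail, *NUT1*, the gene of Med5, rose (2871 and 2793 normalized counts in the deletion and 1769 and 1773 in WY23; log2 change 0.68, SE 0.12, adjusted p = 0.0036), and *SIN4*, the gene of Med16, was at 0.24 (adjusted p = 0.063). *MED2* and *PGD1*, the genes of Med2 and Med3, which bind Med15 in the tail, were called lower at -0.62 and -0.25, but both calls are lost without WY23 replicate 1 (-0.59 and -0.34), WY23 replicate 2 (-0.66 and -0.16) or deletion replicate 2 (-0.47 and -0.22), that of *PGD1* also without deletion replicate 1 (-0.28) and without any of the LAB and WY7 libraries (-0.25), and with equal sums *PGD1* is at 0.21. Of 16 head and middle genes 3 rose and 3 fell, with changes of -1.13 to 0.46 (median -0.09), but there were 1 higher and 5 lower with quantile normalization (median -0.17) and 11 higher and 1 lower with equal sums (0.36). Without deletion replicate 2 or WY23 replicate 2 the rises number 1, and without deletion replicate 1 or WY23 replicate 2 the falls number 1. In the kinase module 1 of 4 rose, *SSN2* (0.64, adjusted p = 0.0011), and with equal sums 4 are higher. The tail list, *MED15* included, has a median of -0.25, which is 0.21 with equal sums.

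Of 15 genes of activators reported to use Med15 4 rose, 3 fell and 8 did not pass, with a median change of 0.03. The called share of 46.7% stands beside 41.3% of all genes, and the list has 7 higher and 3 lower with quantile normalization (median 0.34) and 8 higher and 1 lower with equal sums (0.49). *GCN4*, the activator gene of amino acid synthesis, had 35289 and 35088 normalized counts in the deletion and 44077 and 46711 in WY23 and was not called on the deposited scale (-0.37, adjusted p = 0.086), but was higher under quantile normalization (0.97). *MSN4*, a stress activator gene, fell (6207 and 4970.1 normalized counts in the deletion and 23797 and 23967 in WY23; log2 change -2.10, SE 0.21, adjusted p = 0.00023). *HSF1*, the heat shock activator gene, was not called (0.21, adjusted p = 0.12), but is higher under quantile normalization (0.63). *SWI5*, an activator gene of the late cell cycle, rose (333 and 258 normalized counts in the deletion and 69.6 and 85.9 in WY23; log2 change 1.91, SE 0.20, adjusted p = 0.00025). Without any 1 of the 4 libraries the falls number 1, and without deletion replicate 1 or either WY23 library the rises number 2.

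Drug efflux genes under Pdr1 and Pdr3 moved apart: of 13 tested 7 fell and 2 rose, with a median of -0.46. Counts were 4 lower and 3 higher with equal sums (median 0.00) and 6 lower and 1 higher with quantile normalization. *SNQ2*, a multidrug pump gene, had 6489 and 6433 normalized counts in the deletion and 15602 and 15639 in WY23 (log2 change -1.27, SE 0.09, adjusted p = 7.1e-05). *YOR1*, another pump gene, fell by 1.55 on the log2 scale (adjusted p = 0.00088) and *RSB1*, a sphingoid base transporter gene, by 2.03 (adjusted p = 0.00091). *PDR10*, a pump gene of the same family, rose (4872 and 3429 normalized counts in the deletion and 1950.4 and 1679 in WY23; log2 change 1.17, SE 0.21, adjusted p = 0.0034). *PDR5*, its best known member, had 6238 and 7068 normalized counts in the deletion and 6764 and 6281 in WY23, and its groups overlapped. Without WY23 replicate 1 or 2 the falls number 4.

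Messages for sugar breakdown fell as a group. Of 17 glycolysis genes 15 fell and 0 rose, with a median of -1.48 against -0.00 for all genes, and together they took 1.9 and 1.96% of the summed normalized counts in the deletion libraries and 4.41 and 5.34% in the WY23 libraries. *CDC19*, the pyruvate kinase gene, had 31809.5 and 36468 normalized counts in the deletion and 156543 and 191439 in WY23 (log2 change -2.35, SE 0.23, adjusted p = 0.00023). *TDH1*, a glyceraldehyde phosphate dehydrogenase gene, had 33632 and 39118 normalized counts in the deletion and 148282 and 216062 in WY23 (log2 change -2.30, SE 0.31, adjusted p = 0.0009), and *ENO1*, an enolase gene, had 32603 and 35766 normalized counts in the deletion and 131692 and 176947 in WY23 (log2 change -2.16, SE 0.22, adjusted p = 0.00024). In each of these genes both deletion libraries lay below both WY23 libraries, as they did for 40% of all genes tested. The other genes did not pass, *HXK2*, the main hexokinase gene (-0.47, adjusted p = 0.3), and *PYK2*, a minor pyruvate kinase gene (0.24). The counts of this group depend on the scaling. With equal sums 13 are lower and 1 higher (median -1.02, and 0.45 for all genes). Quantile normalization leaves 9 lower and 1, *TDH3*, higher (0.92), with a median of -0.55.

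Hexose transporters and sensors went both ways. Of 18 listed, 15 had enough reads to be tested, and 4 of these fell and 4 rose (median -0.24). The called share was 53.3%, beside 41.3% of all genes, of which 21.8% rose and 19.5% fell. Counts were 3 higher and 6 lower with quantile normalization (median -0.91) and 5 higher and 4 lower with equal sums (0.22). The list took 0.305 and 0.213% of the summed normalized counts in the deletion libraries and 1.23 and 1.3% in the WY23 libraries. *HXT2*, a high-affinity transporter gene, differed most between replicates (8279.7 and 160.0 normalized counts in the deletion and 14005 and 7238 in WY23) and was not called (-3.12, SE 1.59, adjusted p = 0.15). *HXT6*, also of high affinity, was called lower (-1.93), but has a near-identical copy and loses the call without any single library of the 4 (-1.63 to -2.24). Besides *HXT14*, *HXT10* rose (129 and 125 normalized counts in the deletion and 25.4 and 32.6 in WY23; log2 change 2.11, SE 0.30, adjusted p = 0.0011), both from low levels in WY23. *RGT2*, a glucose sensor gene, was called higher (0.50) but not without either WY23 library (0.54 and 0.46) or deletion replicate 2 (0.35), and the rises number 2 without either WY23 library.

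In the ethanol and acetate pathway 8 of 18 genes fell and 4 rose, with a median of -0.42, and there were 3 higher and 6 lower with quantile normalization (median -0.50) and 6 higher and 6 lower with equal sums (0.04). *PDC1*, the main pyruvate decarboxylase gene, had 17820.1 and 19324 normalized counts in the deletion and 49185 and 54241 in WY23 (log2 change -1.48, SE 0.15, adjusted p = 0.00023), and *ADH1*, the alcohol dehydrogenase gene of ethanol formation, had 27667 and 25014 normalized counts in the deletion and 108223 and 139435 in WY23 (log2 change -2.22, SE 0.24, adjusted p = 0.00033). Both were also lower under quantile normalization (-0.61 and -0.96). *ADH2*, whose enzyme oxidizes ethanol, had 833 and 154 normalized counts in the deletion and 523 and 343 in WY23. Its deletion libraries enclosed the WY23 values and the change of -0.24 was not called (SE 0.76, adjusted p = 0.83). *ADH3*, the mitochondrial alcohol dehydrogenase gene, rose (10785 and 9873 normalized counts in the deletion and 6183 and 6458 in WY23; log2 change 0.71, SE 0.10, adjusted p = 0.00094). *ALD5*, a mitochondrial acetaldehyde dehydrogenase gene, fell (log2 change -1.67, SE 0.16, adjusted p = 0.00021). *ALD6*, the cytosolic acetate-forming dehydrogenase gene, had 4917 and 1022 normalized counts in the deletion and 19294 and 10698 in WY23 (log2 change -2.68, SE 0.79, adjusted p = 0.027). Its call is lost without WY23 replicate 1 (-2.25), WY23 replicate 2 (-3.10) or deletion replicate 2 (-1.55), and it is -3.81 without deletion replicate 1. The falls of the list number 5 without any of the 3 libraries that end the call of *ALD6*, and its rises number 1 without deletion replicate 1 and 2 without WY23 replicate 1.

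Of 11 glycerol genes 5 fell and 2 rose (median -0.46, and -0.00 with equal sums), the falls led by *GPP1*, a glycerol phosphatase gene (11236 and 12417 normalized counts in the deletion and 50024 and 58614 in WY23; log2 change -2.20, SE 0.18, adjusted p = 0.00011), and *GPD1*, the glycerol phosphate dehydrogenase gene induced by osmotic stress (5539.8 and 6257 normalized counts in the deletion and 24418 and 28141 in WY23; log2 change -2.15, SE 0.23, adjusted p = 0.00031). *DAK2* and *STL1*, genes of dihydroxyacetone phosphorylation and glycerol uptake, were called higher (1.94 and 2.07), the first not without WY23 replicate 2 (1.66) or deletion replicate 1 (1.82) and the second not without any single deletion, WY23, LAB or WY7 library (1.77 to 2.37). Among 17 genes of trehalose and glycogen, 6 fell and 0 rose (median -0.63), with *GSY2*, the main glycogen synthase gene, at 5729 and 5834 normalized counts in the deletion and 22651 and 23648 in WY23 (log2 change -2.001, SE 0.20, adjusted p = 0.00023), while *TPS1*, the trehalose phosphate synthase gene, was at -0.66 (adjusted p = 0.11). Without WY23 replicate 2 the falls number 3. Under quantile normalization 3 genes of this list are higher and 6 lower, and with equal sums 5 are higher and 5 lower. Its called share on the deposited scale was 35.3%, beside 41.3% of all genes.

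Genes for poor nitrogen sources fell. Of 26 genes under nitrogen catabolite repression, the control that keeps them silent while preferred nitrogen is present, 16 fell and 5 rose, with a median of -1.14. *MEP2*, the high-affinity ammonium permease gene, had 18919 and 15114 normalized counts in the deletion and 129788 and 118832 in WY23 (log2 change -2.88, SE 0.19, adjusted p = 5.6e-05). *DAL7* had 3490.1 and 3031 normalized counts in the deletion and 27116 and 24419 in WY23 (log2 change -2.98, SE 0.21, adjusted p = 6.7e-05), and in the same run of neighbouring genes on chromosome IX *DAL3*, the ureidoglycolate hydrolase gene, fell by 2.73 on the log2 scale, *DAL4*, the allantoin permease gene, by 1.75 and *DAL2*, the allantoicase gene, by 1.41 (adjusted p = 3.3e-05 to 0.0016), while *DCG1* between them was not called (-0.60, adjusted p = 0.065). *UGA4*, the GABA permease gene, had 3140.5 and 2772 normalized counts in the deletion and 19189 and 14826 in WY23 (log2 change -2.51, SE 0.20, adjusted p = 9.8e-05). *GAP1*, the general amino acid permease gene, had 18946 and 11527 normalized counts in the deletion and 51887 and 41435 in WY23 (log2 change -1.65, SE 0.29, adjusted p = 0.0029), not called under quantile normalization (-0.93, adjusted p = 0.055). The groups did not overlap in any of these genes, and 40% of all genes tested lay lower in the deletion without overlap. *OPT2*, an oligopeptide transporter gene, rose (3409 and 2659 normalized counts in the deletion and 279.6 and 243 in WY23; log2 change 3.52, SE 0.13, adjusted p = 6.0e-06), as did *GDH2*, the glutamate dehydrogenase gene that releases ammonium (0.78, adjusted p = 0.00049). Under quantile normalization 12 genes are lower and 6 higher, and without 1 of the deletion, WY23 or WY7 libraries the rises number 2 or 3.

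Most regulators of these genes fell on the deposited scale: of 7 tested 6 fell and 0 rose (median -0.60). Under quantile normalization 5 are lower (median -0.63), but with equal sums only 3 are (-0.14). *GAT1*, a GATA activator gene, had 6536 and 5666 normalized counts in the deletion and 27389.8 and 28094 in WY23 (log2 change -2.19, SE 0.17, adjusted p = 8.3e-05), and *DAL80*, a GATA repressor gene, had 1941 and 1787 normalized counts in the deletion and 8506 and 7392 in WY23 (log2 change -2.09, SE 0.14, adjusted p = 5.6e-05). *GZF3*, another GATA repressor gene, fell by 1.08 on the log2 scale (adjusted p = 0.0016). *URE2*, the gene of the Gln3 inhibitor, was not called (-0.34, adjusted p = 0.054). Without WY23 replicate 1 the falls number 3. GATA factors bind GATAAG, and in the 500 bases before the start codon 20 of the 26 genes (76.9%) hold it on either strand, against 22.8% of the 5706 tested genes with such a window, 34.0% of those that fell and 19.3% of those that rose by at least 2-fold. The 26 were listed as genes under this control, so their share is not a finding of these data. The upstream window of *DAL7* is shown because that gene fell most among the list members that hold the motif. It lies at chrIX:414780-415079, minus strand (R64, RefSeq), 300 bases read 5′ to 3′ towards the gene and ending 100 bases before its start codon. Its 5′ end reaches into the end of *DAL3*, and capitals mark 3 matches to GATAAG or its reverse complement, the nearest starting 167 bases before the start codon.
DAL7: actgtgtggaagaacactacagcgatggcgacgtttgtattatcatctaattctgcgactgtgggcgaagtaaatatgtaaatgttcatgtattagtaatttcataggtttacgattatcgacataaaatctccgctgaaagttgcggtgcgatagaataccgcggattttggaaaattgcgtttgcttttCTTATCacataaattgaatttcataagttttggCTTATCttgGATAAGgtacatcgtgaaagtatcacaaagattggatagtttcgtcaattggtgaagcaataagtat

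Amino acid permeases split by transporter. Of 21 tested 10 rose and 5 fell, with a median of 0.55. Besides *GNP1* and *MUP1*, *TAT1*, a permease gene for tyrosine and branched-chain amino acids, rose (9559 and 9701 normalized counts in the deletion and 1239 and 1329 in WY23; log2 change 2.91, SE 0.17, adjusted p = 2.8e-05). *CAN1*, the arginine permease gene, fell (13919.8 and 13088 normalized counts in the deletion and 45548 and 46664 in WY23; log2 change -1.77, SE 0.16, adjusted p = 0.00016), and *BAP2*, a branched-chain amino acid permease gene, fell by 1.55 on the log2 scale (adjusted p = 0.00025). *AGP1*, a broad permease gene, had 29496 and 28569 normalized counts in the deletion and 65705 and 77845 in WY23 (log2 change -1.30, SE 0.20, adjusted p = 0.0014), but is at 0.15 under quantile normalization, where it is not called. *LYP1*, the lysine permease gene, had 13526 and 12642 normalized counts in the deletion and 12806 and 13259 in WY23, and its groups overlapped. Without deletion replicate 1 or WY23 replicate 2 the rises number 4.

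Arginine synthesis genes were among those that fell furthest. Of 10 tested 7 fell and 0 rose, with a median of -1.59. *ARG3*, the ornithine carbamoyltransferase gene, had 1845 and 1311 normalized counts in the deletion and 10285 and 9829 in WY23 (log2 change -2.69, SE 0.23, adjusted p = 0.00012). *ARG2*, the acetylglutamate synthase gene of the same pathway, had 6443 and 5757 normalized counts in the deletion and 6376 and 6108 in WY23, with overlapping groups. Under quantile normalization 3 genes are lower, *ARG3* and *ARG56* among them, and 1 higher (*ARG7*), and the median is -0.44. Gcn4, the activator of these genes, binds TGACTCA, which 9 of the 10 upstream windows of 500 bases hold, against 4.17% of all tested genes, 9.71% of those that fell and 2.96% of those that rose by at least 2-fold. The window of *ARG3* is shown as that of the member with the largest fall, at chrX:268399-268698, plus strand (R64, RefSeq), 300 bases ending 100 bases before the start codon. Capitals mark the match, which starts 314 bases before it, and the 5′ end reaches into the neighbouring gene *SIP4*.
ARG3: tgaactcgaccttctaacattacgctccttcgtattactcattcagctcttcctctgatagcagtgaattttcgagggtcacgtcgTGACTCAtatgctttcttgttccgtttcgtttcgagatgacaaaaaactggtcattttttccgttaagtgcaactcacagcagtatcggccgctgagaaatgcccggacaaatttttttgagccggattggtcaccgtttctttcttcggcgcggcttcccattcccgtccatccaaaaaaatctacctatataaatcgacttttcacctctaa

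Branched-chain and lysine synthesis gave different pictures under the scalings. Of 11 branched-chain genes 8 fell and 0 rose, led by *LEU1*, the isopropylmalate isomerase gene (69894 and 69108 normalized counts in the deletion and 251701 and 260800 in WY23; log2 change -1.88, SE 0.22, adjusted p = 0.00044), and *ILV2*, an acetolactate synthase gene (30824 and 28139 normalized counts in the deletion and 98689.9 and 101595 in WY23; log2 change -1.77, SE 0.15, adjusted p = 0.00013). The median of -1.17 changes sign with quantile normalization (0.15), where 0 genes are lower and 4 higher, so no direction is given for this group. The list took 1.66 and 1.59% of the summed normalized counts in the deletion libraries and 3.18 and 3.21% in the WY23 libraries. Of 8 lysine genes tested 6 fell and 0 rose (median -0.40), but there were 2 higher and 2 lower with quantile normalization (median -0.06) and 1 higher and 2 lower with equal sums (0.06). *LYS20*, a homocitrate synthase gene, had 5507 and 5256 normalized counts in the deletion and 33328 and 37961 in WY23 (log2 change -2.72, SE 0.16, adjusted p = 3.3e-05) and *LYS9*, a saccharopine dehydrogenase gene, fell by 1.15 on the log2 scale (adjusted p = 7.0e-05). Both stayed called under quantile normalization (-2.45 and -1.05). Without 1 of the deletion or WY23 libraries the lysine falls number 2 or 3.

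Sulfate assimilation and methionine synthesis genes fell while the methionine permease rose. Of 28 tested 19 fell and 1, *MUP1*, rose, with a median of -0.89, and under quantile normalization 15 are lower and 2 higher (-0.54). *STR3*, a cystathionine beta-lyase gene, had 3439 and 2727 normalized counts in the deletion and 14939 and 16197 in WY23 (log2 change -2.34, SE 0.23, adjusted p = 0.00023), and *CYS4*, the cystathionine beta-synthase gene, had 12672 and 11814 normalized counts in the deletion and 41890.3 and 45429.8 in WY23 (log2 change -1.83, SE 0.12, adjusted p = 5.6e-05). *MET6*, the methionine synthase gene, had 27063 and 21678 normalized counts in the deletion and 67879 and 73905 in WY23 (log2 change -1.55, SE 0.17, adjusted p = 0.00037), not called under quantile normalization (-0.35). *MET4*, the activator gene of the pathway, had 9003 and 9472 normalized counts in the deletion and 8481 and 8801 in WY23 and was not called (0.10, but 0.45 and called under quantile normalization). Cbf1, which works with Met4, binds CACGTG. The motif is in the 500 bases before 19 of the 28 genes (67.9%), against 6.27% of all tested genes, 10.7% of those that fell and 4.94% of those that rose by at least 2-fold. The window of *MET17*, the sulfhydrylase gene, is shown because it had the largest fall among members with a match in the printed bases (log2 change -1.55, SE 0.16, adjusted p = 0.00028; it overlaps another annotated reading frame, so its counts are uncertain). It lies at chrXII:732142-732441, plus strand (R64, RefSeq) and ends 100 bases before the start codon, and the capitals start 300 bases before that codon.
MET17: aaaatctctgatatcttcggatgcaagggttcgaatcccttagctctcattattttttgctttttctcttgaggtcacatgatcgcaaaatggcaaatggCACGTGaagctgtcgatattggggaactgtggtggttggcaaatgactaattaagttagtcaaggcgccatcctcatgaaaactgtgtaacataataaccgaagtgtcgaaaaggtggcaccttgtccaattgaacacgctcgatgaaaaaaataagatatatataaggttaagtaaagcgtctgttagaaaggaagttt

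General stress genes, which Msn2 and Msn4 activate, fell in part. Of 19 tested 12 fell and 0 rose, with a median of -1.15. Quantile normalization leaves 8 lower and 2 higher (-0.40). *HSP26*, a small heat shock protein gene, had 21388 and 29849 normalized counts in the deletion and 94339 and 130949 in WY23 (log2 change -2.14, SE 0.26, adjusted p = 0.00047), and *SPI1*, a cell wall gene of stationary phase, had 25431 and 21952 normalized counts in the deletion and 85651 and 94909 in WY23 (log2 change -1.93, SE 0.18, adjusted p = 0.00017). *HOR7*, a gene induced by osmotic stress, fell by 1.92 on the log2 scale (adjusted p = 0.0001). *CTT1*, the cytosolic catalase gene, had 20283 and 18688 normalized counts in the deletion and 41266 and 42769 in WY23, without overlap of the groups, but was not called (-1.11, SE 0.44, adjusted p = 0.079). *SED1*, an abundant wall protein gene, was not called (-0.54) but is higher under quantile normalization (1.03). The short motif AGGGG, the core of the Msn2 and Msn4 site, is before 14 of the 19 genes (73.7%), against 34.6% of all tested genes, 49.2% of those that fell and 30.4% of those that rose by at least 2-fold. The window of *TMA10* is shown as that of the member with the largest fall, at chrXII:783488-783787, minus strand (R64, RefSeq), ending 100 bases before the start codon, with its match on the reverse strand in capitals, which start 338 bases before the start codon.
TMA10: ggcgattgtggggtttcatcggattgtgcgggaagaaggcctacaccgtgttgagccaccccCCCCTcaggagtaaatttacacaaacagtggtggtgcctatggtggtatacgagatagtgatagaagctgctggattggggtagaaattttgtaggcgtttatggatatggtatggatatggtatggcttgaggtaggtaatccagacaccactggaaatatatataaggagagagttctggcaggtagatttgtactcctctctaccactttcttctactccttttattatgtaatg

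Most respiratory genes rose. Of 34 nuclear genes of the respiratory chain and ATP synthase 22 rose and 1 fell, with a median of 0.51 and a range of -1.46 to 2.97, and the list took 1.5 and 1.55% of the summed normalized counts in the deletion libraries and 0.798 and 0.815% in the WY23 libraries. *CYC1*, the main cytochrome c gene, had 734 and 465 normalized counts in the deletion and 70.7 and 77.2 in WY23 (log2 change 2.97, SE 0.47, adjusted p = 0.0018). *ATP16*, an ATP synthase gene, had 5770.4 and 6177 normalized counts in the deletion and 2465 and 2854 in WY23 (log2 change 1.17, SE 0.11, adjusted p = 0.00016), and *QCR2*, a cytochrome bc1 gene, had 11886 and 12878 normalized counts in the deletion and 5803 and 6469.8 in WY23 (log2 change 1.01, SE 0.17, adjusted p = 0.0022). *COX5B*, the cytochrome oxidase isoform gene of low oxygen, fell (7048 and 8343 normalized counts in the deletion and 20208 and 21937 in WY23; log2 change -1.46, SE 0.13, adjusted p = 0.00016), while its aerobic counterpart *COX5A* rose (7453 and 7134 normalized counts in the deletion and 4451 and 4326 in WY23; log2 change 0.73, SE 0.13, adjusted p = 0.0033). Under quantile normalization 29 genes are higher and 1 lower (median 0.83), and without deletion replicate 2 or WY23 replicate 1 the rises number 14. Mitochondrially encoded genes are listed at 0 in every library and were not tested.

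In the citrate and glyoxylate cycles 11 of 28 genes rose and 3 fell (median 0.23), a called share of 50% beside 41.3% of all genes. Counts were 13 higher and 1 lower with quantile normalization (median 0.36) and 18 higher and 1 lower with equal sums (0.69). *SFC1*, a mitochondrial succinate and fumarate carrier gene, had 1289.9 and 898 normalized counts in the deletion and 133 and 109.8 in WY23 (log2 change 3.15, SE 0.23, adjusted p = 7.3e-05), and *FUM1*, the fumarase gene, had 8605 and 7720.3 normalized counts in the deletion and 4547 and 4761 in WY23 (log2 change 0.81, SE 0.10, adjusted p = 0.00046). *CIT3*, a mitochondrial citrate synthase gene, rose (1.66, adjusted p = 0.00035). *KGD1* and *ACO1*, the ketoglutarate dehydrogenase and aconitase genes, were not called (0.30 and 0.24, adjusted p = 0.093 and 0.18), but are higher under quantile normalization (1.02 and 0.82). Without either WY23 library or deletion replicate 1 the rises number 4 to 6, and without either WY23 library or deletion replicate 2 the falls number 0.

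Fatty acid oxidation genes of the peroxisome rose in part. Of 19 tested 10 rose and 1 fell, with a median of 0.60 and a called share of 57.9% beside 41.3% of all genes. *CTA1*, the peroxisomal catalase gene, had 3609 and 3046 normalized counts in the deletion and 555 and 505 in WY23 (log2 change 2.64, SE 0.18, adjusted p = 5.8e-05), and *SPS19*, a dienoyl reductase gene, had 5265 and 5172 normalized counts in the deletion and 912 and 980.5 in WY23 (log2 change 2.46, SE 0.12, adjusted p = 2.0e-05). The groups did not overlap in these genes, *POT1* included, and 39.6% of all genes tested lay higher in the deletion without overlap. *PIP2*, an oleate activator gene, rose (0.60, adjusted p = 0.0054), and its partner *OAF1* was at -0.21 (adjusted p = 0.14). Under quantile normalization 11 are higher and 1 lower (median 0.45).

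Regulators of glucose repression moved in opposite directions. Of 17 tested 6 fell and 3 rose (median -0.22, and 0.24 with equal sums), a called share of 52.9% beside 41.3% of all genes. With equal sums 5 were lower and 6 higher. Among all genes 21.8% rose and 19.5% fell. The 3 of this list that rose were the activator genes of growth on non-fermentable carbon. *ADR1*, the activator gene of ethanol and fatty acid use, had 5422 and 4974 normalized counts in the deletion and 866 and 1016 in WY23 (log2 change 2.47, SE 0.13, adjusted p = 2.4e-05), *CAT8*, the activator gene of glucose synthesis, had 619.8 and 679 normalized counts in the deletion and 160.2 and 151 in WY23 (log2 change 2.05, SE 0.37, adjusted p = 0.0031), and *SIP4*, its relative, had 2473 and 1926 normalized counts in the deletion and 736 and 669.6 in WY23 (log2 change 1.64, SE 0.15, adjusted p = 0.00016). *MTH1*, a repressor gene of hexose transporter genes, had 2718 and 1760.5 normalized counts in the deletion and 11363 and 10202 in WY23 (log2 change -2.30, SE 0.27, adjusted p = 0.00047), and *NRG1*, a repressor gene of glucose-repressed genes, had 6606 and 5391 normalized counts in the deletion and 22199 and 22193 in WY23 (log2 change -1.89, SE 0.15, adjusted p = 9.8e-05). *MIG2*, a repressor gene induced by glucose, changed by -2.74 (-3.34 without deletion replicate 1 and -2.14 without replicate 2). *REG1* and *GLC7*, the phosphatase genes of the pathway, were not called (-0.09 and -0.22, adjusted p = 0.45 and 0.19). These directions hold under quantile normalization and equal sums for the 6 genes named as changed.

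The genes of meiosis and spore formation rose from low levels. Of 24 early meiosis genes tested 13 rose and 1 fell (median 0.76), and of 28 middle and late sporulation genes 21 rose and 2 fell (median 1.89). The called shares were 58.3 and 82.1%, beside 41.3% of all genes. Together the later list took 0.126 and 0.122% of the summed normalized counts in the deletion libraries and 0.0425 and 0.0411% in the WY23 libraries. *HOP1*, a gene of the meiotic chromosome axis, had 1093 and 1403 normalized counts in the deletion and 106 and 125 in WY23 (log2 change 3.42, SE 0.23, adjusted p = 5.8e-05), *REC114*, a gene of meiotic DNA breaks, had 111 and 119 normalized counts in the deletion and 30.9 and 28.3 in WY23 (log2 change 1.92, SE 0.32, adjusted p = 0.0024), and *SPO75*, a gene of spore formation, had 392 and 339 normalized counts in the deletion and 28.7 and 39.1 in WY23 (log2 change 3.40, SE 0.43, adjusted p = 0.0006). Values of the groups did not overlap in these genes, nor in the 39.6% of all genes tested that lay wholly higher in the deletion. *MND1*, a gene of meiotic recombination, fell (963 and 879.8 normalized counts in the deletion and 1782 and 1749 in WY23; log2 change -0.94, SE 0.15, adjusted p = 0.0022), and *UME6*, the regulator gene of early meiosis genes, had 3412 and 2394 normalized counts in the deletion and 3082 and 2967 in WY23, with overlapping groups. Some regulators outside the rule for named genes were looked up after the other values were seen. *IME1*, the master activator gene of meiosis, rose by less (2366 and 1704 normalized counts in the deletion and 1243 and 1190.3 in WY23; log2 change 0.72, SE 0.16, adjusted p = 0.0076), and *IME2* and *NDT80*, the kinase and middle activator genes, were not called (0.30 and 0.34, adjusted p = 0.097 and 0.19). Under quantile normalization 10 early genes are higher and 4 lower, and 19 later genes higher and 3 lower, with medians of 0.36 and 1.25.

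Some of these genes lie side by side. On chromosome XII *CDA1* (chromosome XII, 745620 to 746525), *DPA10* (chromosome XII, 746848 to 747111) and *CDA2* (chromosome XII, 747937 to 748875) follow each other. *CDA1*, which encodes a like enzyme, had 732 and 604 normalized counts in the deletion and 79.6 and 77.2 in WY23 (log2 change 3.07, SE 0.14, adjusted p = 1.2e-05) and *DPA10* had 8169 and 6227 normalized counts in the deletion and 251 and 255 in WY23 (log2 change 4.81, SE 0.19, adjusted p = 6.0e-06). The next gene on the right, *IMH1*, a Golgi gene, had 3033 and 3439.8 normalized counts in the deletion and 3296 and 3153 in WY23, and its groups overlapped. Ume6, which represses early meiosis genes, binds a core of GGCGGC, and Ndt80, which activates middle genes, binds GNCACAAAA. The first is before 14 of the 24 early genes (58.3%), against 9.60% of all tested genes, 14.2% of those that fell and 13.3% of those that rose by at least 2-fold. The second is before 14 of the 28 later genes, against 2.87% of all tested genes, 2.27% of those that fell and 10.6% of those that rose by at least 2-fold. Windows of the largest rise with a match in each list are shown (R64, RefSeq, both ending 100 bases before the start codon): *HOP1* at chrIX:226202-226501, plus strand, with its match starting 171 bases before the start codon, and *CDA2* at chrXII:747537-747836, plus strand, with its match on the reverse strand starting 167 bases before it.
HOP1: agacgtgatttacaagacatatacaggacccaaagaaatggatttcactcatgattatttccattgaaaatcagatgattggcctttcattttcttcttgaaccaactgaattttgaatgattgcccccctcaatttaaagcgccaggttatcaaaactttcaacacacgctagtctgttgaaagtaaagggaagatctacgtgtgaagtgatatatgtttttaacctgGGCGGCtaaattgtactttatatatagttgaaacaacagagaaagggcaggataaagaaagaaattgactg
CDA2: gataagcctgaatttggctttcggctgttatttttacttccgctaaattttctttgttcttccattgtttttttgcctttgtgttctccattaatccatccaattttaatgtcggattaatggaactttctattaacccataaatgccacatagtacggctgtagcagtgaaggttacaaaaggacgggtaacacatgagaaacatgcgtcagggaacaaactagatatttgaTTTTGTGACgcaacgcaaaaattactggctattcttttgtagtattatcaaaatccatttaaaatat

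**Figure D3:**
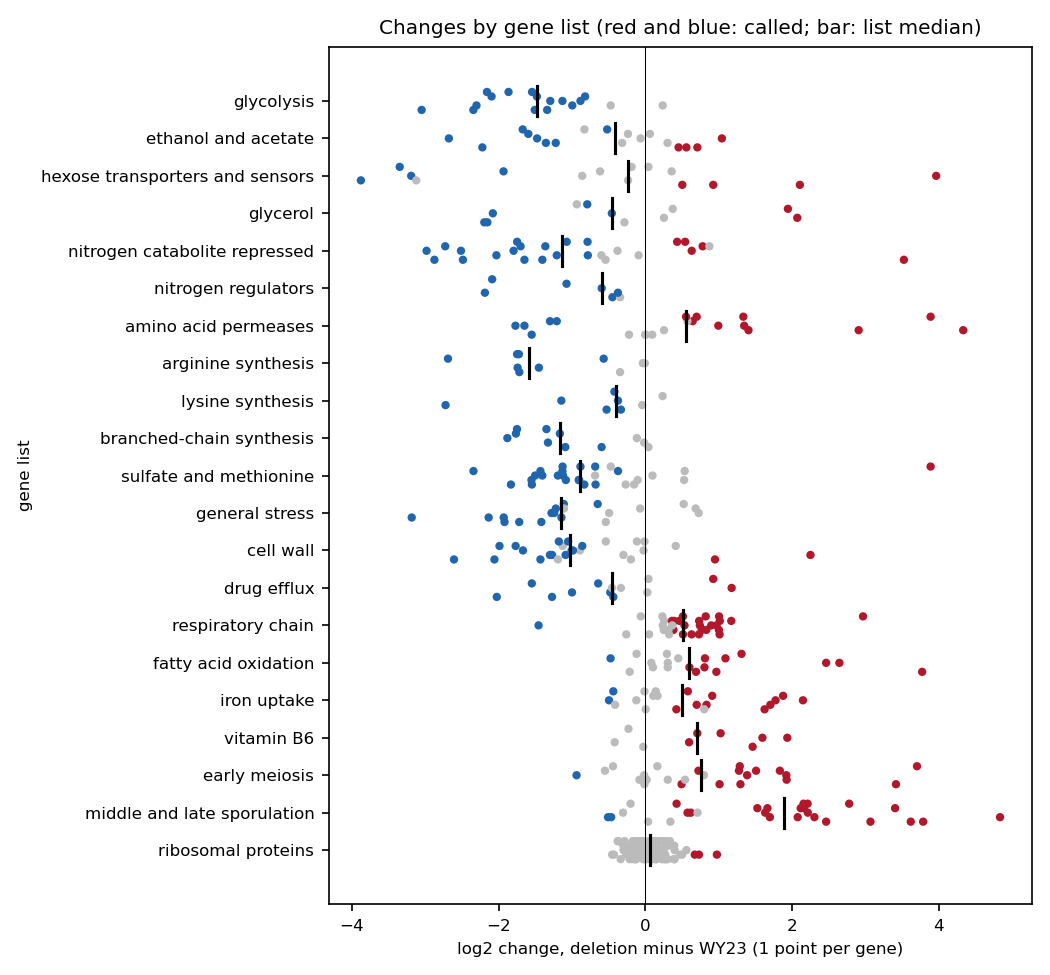
Log2 change, deletion minus WY23, of every tested member of 21 gene lists, 1 point per gene; red points were called higher, blue points lower, grey points not called, and the bar is the list median. Sugar, nitrogen, amino acid synthesis and stress lists lie to the left, respiratory, peroxisomal, iron and sporulation lists to the right, and ribosomal proteins around 0. With equal sums the medians of hexose transporters (0.22), ethanol and acetate (0.04) and lysine synthesis (0.06) are above 0, and with quantile normalization that of branched-chain synthesis is (0.15).

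At the cell surface, 14 of 26 cell wall genes fell and 2 rose, with a median of -1.03. *PST1*, a wall integrity gene, had 10196 and 15557 normalized counts in the deletion and 48386 and 51691 in WY23 (log2 change -1.99, SE 0.27, adjusted p = 0.00085), and *YPS1*, a surface protease gene, had 7366 and 5418 normalized counts in the deletion and 23158 and 20036 in WY23 (log2 change -1.77, SE 0.29, adjusted p = 0.0022). *DSE1*, a daughter cell gene, fell by 2.61 on the log2 scale (adjusted p = 0.0018). *CHS2* and *CHS3*, chitin synthase genes, rose: *CHS2* had 361 and 322 normalized counts in the deletion and 78.5 and 64.1 in WY23 (log2 change 2.25, SE 0.21, adjusted p = 0.00019) and *CHS3* had 5375 and 5715 normalized counts in the deletion and 2995 and 2756 in WY23 (log2 change 0.95, SE 0.12, adjusted p = 0.00076). Under quantile normalization 12 are lower and 6 higher. All 5 flocculin genes, whose proteins make cells stick together, rose: *FLO11* had 855 and 823 normalized counts in the deletion and 355 and 398 in WY23 (log2 change 1.16, SE 0.15, adjusted p = 0.00064) and the other 4 lay between 0.50 and 1.01, of which *FLO1* and *FLO9* are not called under quantile normalization (0.20 and 0.05). *PMA1*, the plasma membrane proton pump gene, fell (43340.5 and 35149 normalized counts in the deletion and 186135 and 211302 in WY23; log2 change -2.35, SE 0.23, adjusted p = 0.0002), whereas its minor isoform gene *PMA2* rose (3592 and 2608 normalized counts in the deletion and 614 and 579 in WY23; log2 change 2.36, SE 0.16, adjusted p = 5.8e-05).

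Iron uptake genes rose in part: 10 of 20 rose and 2 fell, with a median of 0.50 and a called share of 60% beside 41.3% of all genes. *SIT1*, a siderophore transporter gene, had 1888 and 1019 normalized counts in the deletion and 320.5 and 304 in WY23 (log2 change 2.15, SE 0.27, adjusted p = 0.00062), and *FRE2* and *FRE1*, ferric reductase genes, rose by 1.77 and 1.70 on the log2 scale (adjusted p = 0.00019 and 0.00018). *FET4*, a low-affinity iron transporter gene, had 6241 and 6048 normalized counts in the deletion and 6403 and 6003 in WY23, with overlapping groups. *FET3*, the multicopper oxidase gene of iron uptake, had 1404 and 797 normalized counts in the deletion and 344 and 240.2 in WY23 and was called (1.88), but not without WY23 replicate 2 (1.62) or deletion replicate 1 (1.47). Of 9 vitamin B6 genes 6 rose and 0 fell. *SNO1*, a glutaminase subunit gene of the synthesis, had 5176 and 4487 normalized counts in the deletion and 1652 and 1852 in WY23 (log2 change 1.46, SE 0.10, adjusted p = 5.6e-05), and *SNZ1*, its synthase gene, had 23086 and 18212 normalized counts in the deletion and 13708 and 13445 in WY23 (log2 change 0.59, SE 0.13, adjusted p = 0.0077). The other 4 that rose, *SNZ2*, *SNZ3*, *SNO2* and *SNO3*, have near-identical copies and uncertain counts.

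Of 19 mating genes 9 rose and 2 fell, a called share of 57.9% beside 41.3% of all genes. Counts were 5 higher and 3 lower with quantile normalization and 12 higher and 2 lower with equal sums. The 2 that fell are both alpha factor genes, *MF(ALPHA)1* and *MF(ALPHA)2* (110.1 and 122 normalized counts in the deletion and 207 and 261 in WY23; log2 change -0.998, SE 0.16, adjusted p = 0.0022), while *SAG1*, the alpha agglutinin gene, rose (2767 and 2603 normalized counts in the deletion and 1813 and 1873 in WY23; log2 change 0.54, SE 0.08, adjusted p = 0.0015). *HO*, the mating type endonuclease gene, had 766 and 713 normalized counts in the deletion and 211 and 232 in WY23 (log2 change 1.74, SE 0.17, adjusted p = 0.00023). *STE2*, the gene of the alpha factor receptor of a cells, was at 927 and 787 in the deletion and 567 and 540.2 in WY23 (0.63, adjusted p = 0.0048; not called under quantile normalization, 0.31). Without deletion replicate 1 or either WY23 library the rises number 5. Of 8 oxygen-responsive wall genes 3 rose and 0 fell (median -0.07, and 0.38 with equal sums), among them *DAN4* (0.60, adjusted p = 0.0044). With quantile normalization 1 of the 8 was higher and 0 lower. The called share of these wall genes was 37.5%, beside 41.3% of all genes. *DAN1*, a gene of anaerobic growth, had 761 and 1129 normalized counts in the deletion and 2802 and 2442 in WY23 and 233 to 6054 in the other 6 libraries, and was not called (-1.50, SE 1.40, adjusted p = 0.42). Ribosomal protein genes were rarely called, with 3 of 137 higher, 0 lower and a median of 0.07. They took 4.36 and 4.79% of the summed normalized counts in the deletion libraries and 3.32 and 3.17% in the WY23 libraries. In the other 6 libraries the share was 2.74 to 4.47%. Quantile normalization has 13 of them higher. Under equal sums 54 of them are higher, at a median of 0.52 beside 0.45 for all genes. Without deletion replicate 1 or either WY23 library the ribosomal protein rises number 1, and without either WY15 library they number 6.

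Position on the chromosome went with the direction. Among the 67 tested genes within 10 kb of a chromosome end 52.2% were higher and 4.48% lower, against 36.2 and 16.4% of the 232 genes at 10 to 30 kb, 23.5 and 18.0% of the 1072 at 30 to 100 kb, and 19.3 and 20.9% of the 4335 beyond 100 kb. Of the 67 genes next to the ends 27 have near-identical copies, whose reads can be placed on the wrong gene. The share of rises also went with abundance, given above, and the part of level in this pattern was not tested.

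**Figure D4:**
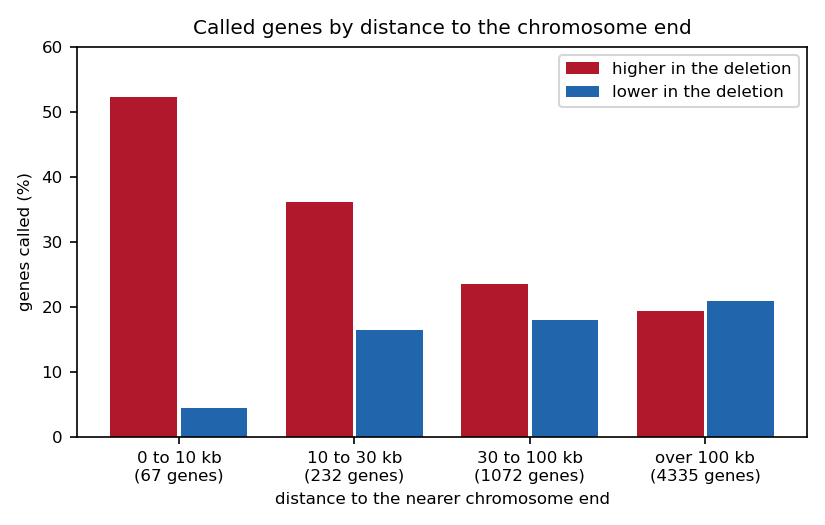
Share of tested genes called higher (red) or lower (blue) in the deletion, by distance to the nearer chromosome end. The red bar is tallest for the 67 genes within 10 kb of an end (52.2%) and both bars are about level beyond 100 kb (19.3 and 20.9%).

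The deletion was also set against each of the other *MED15* alleles. These comparisons use the same deletion libraries, so the values are given side by side only. *HXT3* changed by -3.35 against WY23 and by -3.12, -3.58 and -3.14 against LAB, WY7 and WY15. For *MEP2* the values are -2.88 against WY23 and -2.88, -3.15 and -2.76 against the others in that order. For *ARG3* they are -2.69, -1.73, -1.78 and -2.46, for *GNP1* 4.33, 3.65, 4.56 and 3.95, and for *ALD6* -2.68, -4.25, -3.90 and -3.26. Whether such differences exceed the replicate spread is the contrast of WY23 with the other alleles, which does not use the deletion.

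**Figure D5:**
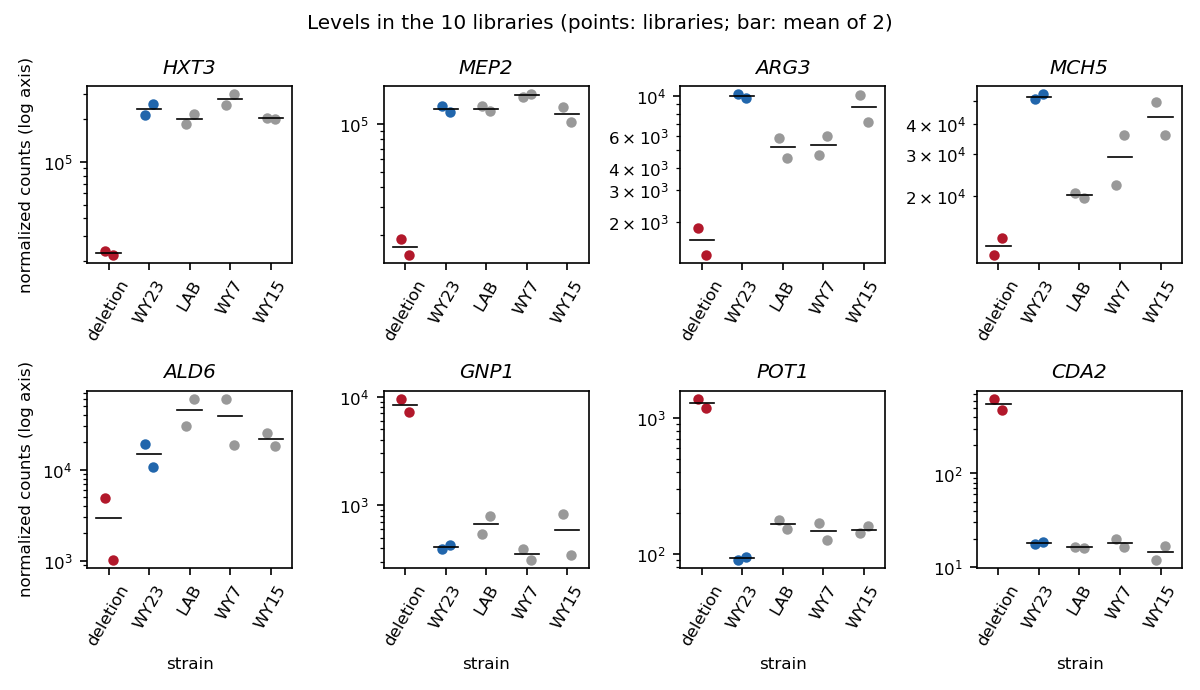
Normalized counts on log axes in the 10 libraries for 8 genes named in the text, 1 point per library with the mean of 2 as a bar, red for the deletion, blue for WY23 and grey for LAB, WY7 and WY15. The deletion libraries lie apart from all 8 *MED15* libraries in each gene, and WY23 lies above LAB and WY7 for *ARG3* and *MCH5* and below the other alleles for *POT1*.

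By limma, 0 genes differed between WY23 and the mean of LAB, WY7 and WY15 at an adjusted p under 0.05 (smallest 0.71), with 424 at an unadjusted p under 0.05, and edgeR also called 0. DESeq2 on the recovered reads called 21, which is 0.346% of the genes, 17 of them higher and 4 lower in WY23. Against LAB alone limma called 0 (smallest adjusted p 0.53, 560 genes at an unadjusted p under 0.05), edgeR 0 and DESeq2 55 (0.907%). The genes of this set were chosen after their values were seen. Among the genes higher in WY23 than the mean of the 3 alleles, the largest DESeq2 differences were in *MCH5*, a riboflavin transporter gene, with 50938 and 53589.9 normalized counts in WY23 and 19572 to 49724 in the other 6 libraries of *MED15* strains (limma log2 difference 0.85), *MAE1*, the mitochondrial malic enzyme gene (31866 and 36693 against 15844 to 28471; 0.73), and *ARG3* (10285 and 9829 against 4542 to 10141; 0.70). The WY23 values of *MCH5* and *MAE1* exceed all 6 others, and those of *ARG3* do not. *OAC1*, a mitochondrial oxaloacetate carrier gene (0.68), and *YOR302W*, a short reading frame upstream of *CPA1* (0.56), come next. *CIN5*, a salt stress activator gene, has the largest difference of all 21 and is lower, with 9036 and 6325 in WY23 and 11562 to 26805 in the other 6 (-1.23), as are *YNL194C* (-0.92), *PNS1* (-0.72) and the regulator gene *USV1* (-0.64). *MED15* is also in this set, with 10571 and 10958 against 8238 to 9497 (0.29).

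The 5 genes with the smallest limma p-values in that contrast were *POT1*, *IPL1*, *LMO1*, *MMS4* and *WSC2*, none of which passed (adjusted p = 0.71 for each). *POT1* had 90.6 and 94.6 in WY23 and 126 to 178 in the other 6 libraries (-0.73), and *WSC2*, a cell wall sensor gene, had 439 and 388 and 301 to 323 (0.39). For *POT1* WY23 was the lowest and for *WSC2* the highest of the *MED15* strains. A p that misses the threshold with 2 libraries per strain does not show that the alleles act alike.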

How the data were processed

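Polyadenylated RNA of 10 cultures was sequenced on a NovaSeq instrument from stranded libraries, per the labels' protocols. The tools in the submitters' processing notes are Trim Galore, Bowtie2, featureCounts and DESeq2, with the builds sacCer3 and R64, and the strand setting of counting is not given in the sources used here. The authors deposited normalized read signal per gene, and 100% of the values came out as whole reads (within 1e-06 of a whole number) after division by 1 step per library, so each value is a read count divided by a size factor; no deposited value was corrected for gene length. The table lists 6600 genes, of which 683 IDs were not matched to RefSeq R64 names and keep their file IDs.

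From these values, log2(value + 1) of 6065 genes with a mean of at least 10 over the 10 libraries was fitted with limma 3.58.1 (R 4.3.3), 5 group means, an intensity trend and a Benjamini-Hochberg adjusted p under 0.05. The recovered reads were also tested with edgeR 4.0.16 and DESeq2 1.42.0. Other alternatives were pseudocounts of 0.5 and 5, a minimum mean of 50 or none, a fit of the 4 libraries alone, quantile normalization, equal sums, robust variances, a replicate block and leaving out each of the 10 libraries. Genes with a match of at least 97% over 150 bases elsewhere are called near-identical (241), and 151 overlap another gene. On simulated counts for this comparison with 200 of 6065 genes changed, the test called 98.5% of those changed 4-fold, 87% of those changed 2-fold and 10% of those changed 1.5-fold, with 11, 6 and 4 genes wrongly called. The changed genes had a mean of at least 50 and random directions, and the size factors were taken as known. Far more genes were called in the real data, where directions went with abundance and scaling, so these rates need not hold there. Gene counts of reads are not independent molecules, so floors cover counting error only.

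The comparison, its 51 gene lists and the tests were chosen with earlier results of these data known, so no list count is independent support. Named are *MED15* and marker genes, the 12 largest called rises and falls with a mean of at least 50 and no overlap of libraries, and per list up to 4 called members in each direction and 2 abundant members not called. Neighbouring genes, *COX5A*, *IME1*, *IME2*, *NDT80*, *TDH3* and the genes called by DESeq2 between alleles were named after their values were seen. A gene that the rule names is not reported here. Promoter windows and motifs were read from RefSeq R64 on both strands, 500 bases before the start codon. The lists with motif shares hold genes known to be under the factors named, so a high share follows in part from how a list was made. The sets of genes changed at least 2-fold include list members.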

Additional observations from a re-analysis of the deposited data

How the results depend on the processing

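The 2 libraries per strain, the harvest at 48 h against about 37 h and *URA3* limit every comparison, and counts of rises against falls rest on the scaling. The number of genes called (2505) was 3816 with equal sums, 3429 higher and 387 lower. Without 1 library the total ranged from 1427 to 2807, the rises from 803 to 1453 and the falls from 624 to 1354, lowest without WY23 replicate 2. The labels do not pair cultures by number. Same-numbered libraries of different strains correlated in their deviations at 0.26 for the deletion and WY23, and over 0.1 in 3 of 10 pairs of strains (-0.50 to 0.41). These 3 pairs are all among the deletion, WY23 and WY7 (0.26, 0.41 and 0.27), so a shared replicate effect in the strains compared stays possible. The main fit has no pairs because the labels give none, and fits with a replicate block are given next. With a replicate block over the 10 libraries 1251 genes were higher and 1099 lower, and with a replicate block over the 4 libraries 1860 and 1882. A fit of the 4 libraries without a block gave 1622 and 1590. With edgeR the counts were 1345 and 1179, and with DESeq2 1452 and 1305. WY23 against the mean of the other 3 alleles gave 21 genes by DESeq2, and WY23 against LAB gave 55, against 0 by limma and edgeR in both.

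*MED15* kept its direction and its call under all 23 alternatives (-10.02 to -9.26). For the 174 other genes looked up in detail, 4002 values were recomputed: 3841 kept their direction and side of the threshold, 75 lost the call, 76 gained one and 10 reversed. The 174 leave out called genes of the naming rule that lost the call when a library was left out, so their counts do not describe all called genes. The reversals came under 2 scalings. With equal sums they were *ARG2* (0.42), *FET4* (0.44), *PGD1* (0.21) and *REG1* (0.37). Under quantile normalization they were *AGP1* (0.15), *GCN4* (0.97), *GDH1* (0.62), *MAE1* (0.0517), *SED1* (1.03) and *TDH3* (0.92). Pseudocounts of 0.5 and 5, no filter and a minimum mean of 50 changed no call among these genes. The cause of the differences between settings was not tested.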

Other observations

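Other nutrient genes held values that stand outside the comparisons above. Beside 41.3% of all genes, 41.2% of the thiamine, 42.9% of the histidine, 75% of the glutamate, 33.3% of the pyrimidine and 58.3% of the aroma list were called. *THI4*, the thiazole synthesis gene of thiamine, had 35909.7 and 35356 normalized counts in the deletion and 199421 and 239824 in WY23 (log2 change -2.62, SE 0.22, adjusted p = 0.00011), and the 17 thiamine genes, of which 4 fell and 3 rose (median -0.16, 0.07 with quantile normalization and 0.29 with equal sums), took 0.705 and 0.701% of the summed normalized counts in the deletion libraries and 1.43 and 1.53% in the WY23 libraries; all 3 that rose have near-identical copies and uncertain counts. Of 7 histidine synthesis genes 3 fell and 0 rose (6 fell without either LAB library), led by *HIS4* (17462 and 16302 normalized counts in the deletion and 72369 and 79612 in WY23; log2 change -2.17, SE 0.22, adjusted p = 0.00025). Of 8 glutamate genes 4 fell and 2 rose, with a median of -0.23 (falls of 2 without any 1 of the deletion or WY23 libraries), but the list has 4 higher and 1 lower with quantile normalization (median 0.37) and 4 higher and 1 lower with equal sums (0.23). *GDH3*, the minor ammonium-assimilating glutamate dehydrogenase gene, rose (27040.1 and 25793 normalized counts in the deletion and 11028 and 11025 in WY23; log2 change 1.26, SE 0.25, adjusted p = 0.0056), while its main counterpart *GDH1* had 32378 and 32104 normalized counts in the deletion and 58072 and 56278 in WY23 and fell on the deposited scale (-0.83, adjusted p = 0.0055) but is higher under quantile normalization (0.62). Of 12 pyrimidine genes 3 rose and 1 fell (5 rose without either WY15 library, and 9 are higher with equal sums): besides *URA3*, *URA8*, a CTP synthase gene, rose (8158 and 8365 normalized counts in the deletion and 3525 and 3446 in WY23; log2 change 1.24, SE 0.10, adjusted p = 0.00011), and *URA2*, which opens the pathway, fell (3849 and 3746 normalized counts in the deletion and 8331 and 8125 in WY23; log2 change -1.12, SE 0.14, adjusted p = 0.00063). Of 12 aroma genes, which form higher alcohols and esters, 6 fell and 1 rose (4 lower and 3 higher under quantile normalization), with *EEB1*, an ethyl ester synthesis gene, at 3747 and 4781 normalized counts in the deletion and 14287 and 13891 in WY23 (log2 change -1.73, SE 0.28, adjusted p = 0.0019).

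Called shares below were 22.7% for heat shock, 57.1% for heme, 35% for phosphate, 20% for ribosome biogenesis, 35.7% for sterol and 50% for galactose. Of 23 oxidative stress genes 6 rose and 4 fell, a called share of 43.5% beside 41.3% of all genes. The list has 12 higher and 1 lower with quantile normalization (median 0.38) and 17 higher and 2 lower with equal sums (0.60). *TSA1*, the main peroxiredoxin gene, had 30299.5 and 30385 normalized counts in the deletion and 10009.6 and 11149 in WY23 (log2 change 1.52, SE 0.11, adjusted p = 5.9e-05), and *AHP1*, another peroxiredoxin gene, had 13026 and 15156 normalized counts in the deletion and 29746 and 34844 in WY23 (log2 change -1.20, SE 0.20, adjusted p = 0.0023). Heat shock genes showed few calls, 2 of 22 higher and 3 lower (1 lower without deletion replicate 1 or WY23 replicate 2; median -0.24, 0.29 with quantile normalization and 0.22 with equal sums), among them *SSA3*, a chaperone gene induced by stress (5907 and 7485 normalized counts in the deletion and 2170.3 and 2316 in WY23; log2 change 1.57, SE 0.12, adjusted p = 9.0e-05). Of 14 genes of heme and its regulators 6 fell and 2 rose (falls of 3 without any 1 of the 4 libraries; 1 lower and 5 higher with equal sums), led by *HAP1*, the heme-responsive activator gene (6344 and 7399 normalized counts in the deletion and 20944 and 21602 in WY23; log2 change -1.63, SE 0.34, adjusted p = 0.0065). *PHM8*, a phosphatase gene, fell (6544 and 9229 normalized counts in the deletion and 31055 and 35122 in WY23; log2 change -2.09, SE 0.22, adjusted p = 0.0003), in a phosphate list with 5 of 20 higher and 2 lower (rises of 2 or 3 without any 1 of the 4 libraries; 14 higher and 1 lower with equal sums). Of 30 ribosome biogenesis genes 6 fell and 0 rose, a count that is 2 without any 1 of the 4 libraries and 14 without either WY15 library, and with equal sums 2 are lower and 5 higher. *DBP2*, a helicase gene, led it (5379 and 3481 normalized counts in the deletion and 21569.5 and 23002 in WY23; log2 change -2.36, SE 0.42, adjusted p = 0.0032). Sterol synthesis had 8 of 28 lower and 2 higher (median -0.19), with 2 lower without any 1 of the 4 libraries, and 4 higher and 5 lower with quantile normalization (median -0.03) and 11 higher and 3 lower with equal sums (0.27). Of 8 galactose genes 3 rose, led by *GAL1*, the galactokinase gene (863 and 861 normalized counts in the deletion and 380.1 and 377 in WY23; log2 change 1.18, SE 0.11, adjusted p = 0.00016), and 1 fell. The galactose rises number 5 without either WY15 library.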
